A study of Mus musculus with 22 samples.

Results

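The genes described here are 10 antioxidant genes that the transcription factor NRF2 is known for controlling, or that belong to the same redox defence: Hmox1, Nqo1, Gclc, Gclm, Gsr, Txnrd1, Srxn1, Prdx1, Gpx3 and Sod3. They were chosen by symbol, with earlier results of these data known, so their shares of calls beside those of all genes are descriptions only. All 10 were found among the 55414 genes of the count table and among the 17554 genes with enough counts to be tested. RNA had been sequenced from fibroblasts sorted out of mouse back skin in a model of skin expansion. Every mouse had been operated on through an incision close to the tail. EXP mice then received a hydrogel expander, stitched in place subcutaneously towards the neck, and CTRL mice none. The libraries were of day 1 (4 CTRL, 5 EXP), day 2 (3 CTRL, 3 EXP) and day 4 (4 CTRL, 3 EXP), 22 in all. CTRL libraries therefore also come from operated skin, and there was no group without surgery. Strain and age are not given in the sources used here, nor is it stated whether each library is a separate mouse. The p-values therefore set differences against the spread between these libraries, which may not be a spread between mice.

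NRF2, encoded by Nfe2l2, is a transcription factor that is held low by KEAP1, an adaptor that hands it to the CUL3 and RBX1 ubiquitin ligase for degradation. Oxidants and electrophiles modify KEAP1, NRF2 then accumulates, pairs with a small MAF protein and binds antioxidant response elements, while BACH1 and BACH2 compete for the same sites. The known targets make glutathione, reduce thioredoxin and peroxiredoxins, break down heme and detoxify quinones. In skin this system is known for its part in wound repair, where inflammatory cells release oxidants.

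Library totals ran from 21461294 to 30210204 counts. Counts were scaled to CPM, the counts brought to a common library total with the TMM correction, and effects are log2 fold changes of EXP against CTRL with their standard error (SE). The fibroblast sort showed in the data, with 40688 to 184622 CPM summed over 6 fibroblast markers in EXP libraries and 137735 to 288247 CPM in CTRL. The sum was lower in EXP without overlap on each day, most on day 2 (48263 to 119825 against 235942 to 288247 CPM). Of the 6 markers 3, 4 and 3 were called lower on days 1, 2 and 4, and Pdgfra was called higher on each day. Their part in the results below was not tested. Ptprc, the gene of CD45, was at most 0.243 CPM, while the 9 macrophage and leukocyte markers summed to 63.2 to 182 CPM. Of the 6 tested, 2, 2 and 1 were called higher in EXP on days 1, 2 and 4, and 1 was called lower on day 1. The 5 neutrophil markers summed to at most 5.16 CPM, and the 1 tested was called higher in EXP on each day (6.18, 6.47 and 6.20). The part of these markers was not tested either. A set of 192 genes that follow Rnf10 across libraries placed 7 libraries (day 1 CTRL replicates 1 to 3, day 1 EXP replicates 1 and 2, day 4 CTRL replicates 3 and 4) above the other 15, with a gap of 0.70 in their mean log2 CPM. The labels do not say what these 7 libraries share. They come from both arms on day 1 and from CTRL only on day 4, so on that day the split and the arm are not independent. Results of days 1 and 4 are therefore also given among the 7 libraries (the high side) or among the 15 (the low side). In these fits only libraries of that day on the other side were left out. The libraries of the other days, from both sides, stayed in the estimate of the spread. In bulk samples, fewer cells of a type and less RNA per cell cannot be told apart.

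On day 1 the heme, glutathione-synthesis, thioredoxin and peroxiredoxin members Hmox1, Gclc, Gclm, Txnrd1 and Prdx1 rose in EXP, and the first 3 rose most, by 3.88-fold to 6.65-fold. On day 2 none of these 5 was called. On day 4 none of them was called higher, and Gclm was called lower. Of the 2 secreted enzymes, Gpx3 was called higher on days 2 and 4 and Sod3 on day 4. In the edgeR quasi-likelihood test with Benjamini-Hochberg adjustment over all tested genes, called at an adjusted p under 0.05, 5 of the 10 genes were called on day 1, all higher, where 28.6% of all tested genes were called and 13.9% were called higher. The lower calls of that day were 14.7% of all genes. On day 2 it was 1 of 10, higher, against 13.4% of all genes (7.72% higher, 5.71% lower). On day 4 it was 4 of 10, 3 higher and 1 lower, against 22.5% (12.8% higher, 9.66% lower). The median log2 fold change of the 10 genes was 0.78, 0.62 and 0.30 on days 1, 2 and 4, beside 0.02, 0.02 and 0.03 over all genes tested. Nqo1 and Gsr were called on no day. Without the TMM correction the median of all genes shifted to 0.21, 0.49 and 0.36, the calls split into 3397 higher and 1733 lower on day 1 (2441 and 2576 with TMM), 4190 and 441 on day 2 (1356 and 1003) and 4269 and 1018 on day 4 (2248 and 1695), and 5 of the 10 genes were called on day 2.

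**Figure D1:**
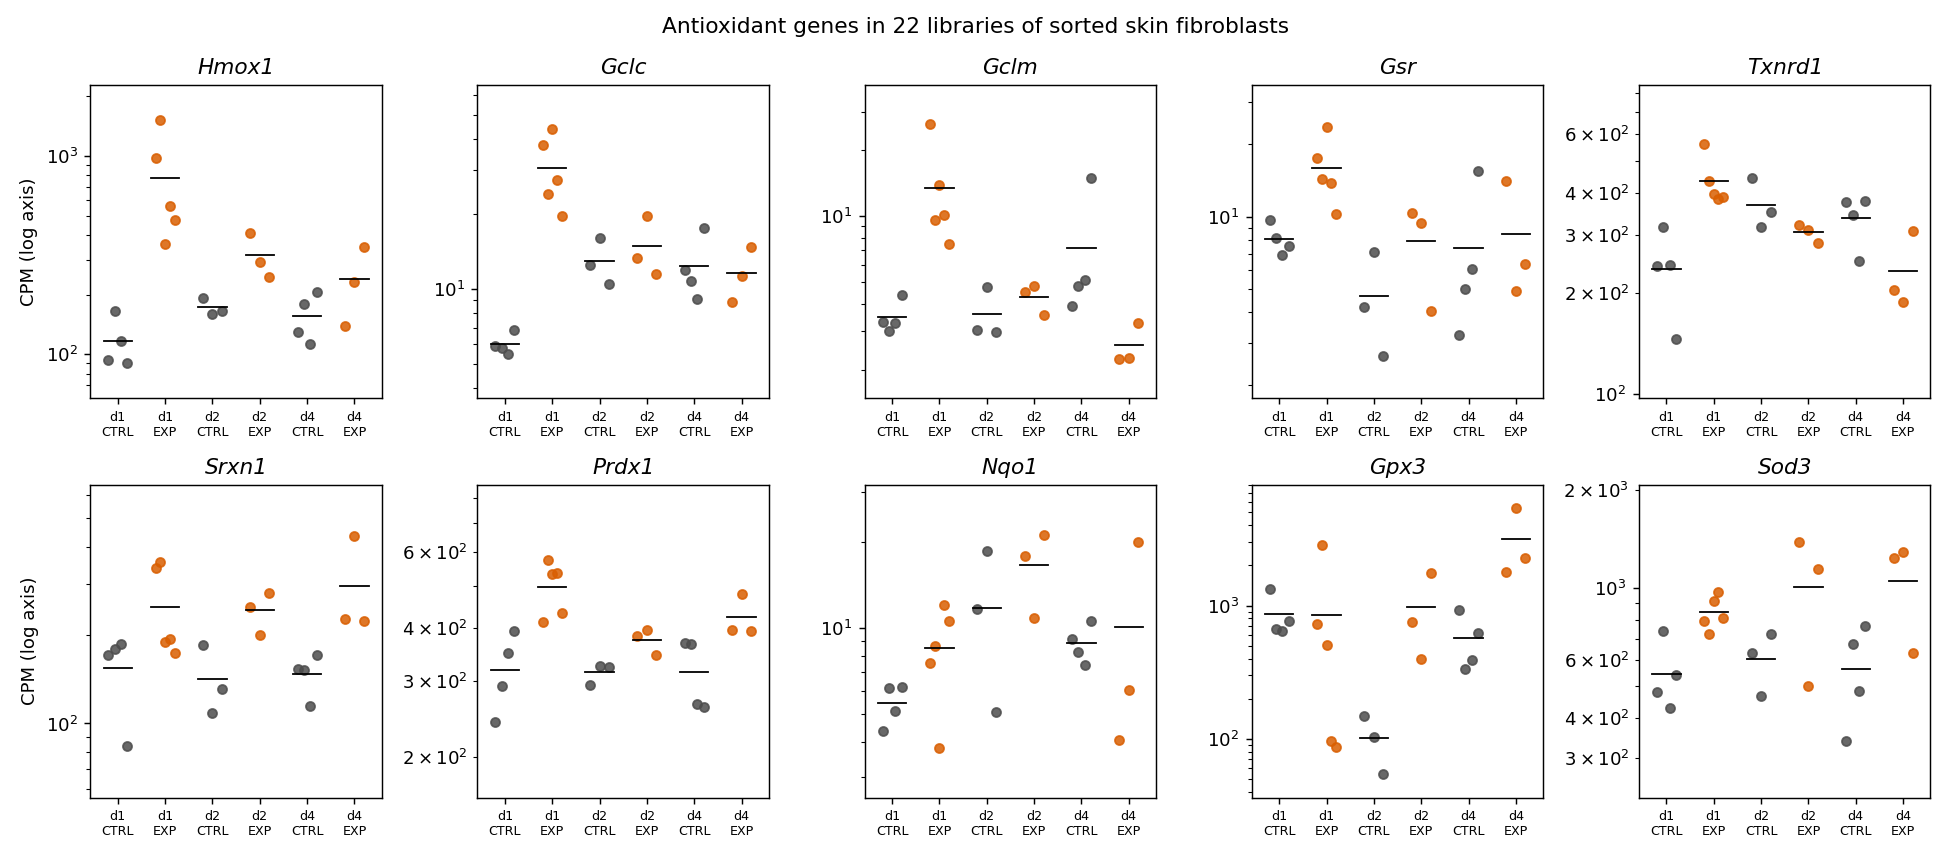
CPM of each of the 10 genes (vertical log axes, 1 panel per gene) in every library, by day (d1, d2, d4) and arm; grey points are CTRL libraries, orange points EXP libraries and bars the group means. Day 1 EXP stands highest for Hmox1, Gclc and Gclm, while Gpx3 is highest in day 4 EXP, at 1780.2 to 5380.1 CPM.

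Hmox1 (ENSMUSG00000005413), the inducible heme oxygenase that opens the heme ring and releases iron, had the largest of the day 1 effects among the 10 genes. It stood at 94.0, 166, 117 and 90.5 CPM in the day 1 CTRL libraries. In day 1 EXP it stood at 979, 1517, 358, 557 and 477 CPM. The lowest EXP library was thus above the highest CTRL library by more than the whole spread of CTRL. The log2 fold change was 2.73 (SE 0.38, edgeR adjusted p 4.67e-05), and leaving out each of the 9 day 1 libraries in turn kept it called, from 2.34 to 2.95. Restricted to the high side (3 CTRL, 2 EXP) it was 3.30 (adjusted p 1.27e-04).

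On day 2 Hmox1 was at 192, 160.01 and 165 CPM in CTRL and at 408, 293 and 247 CPM in EXP. The arms still did not overlap, but the difference of 0.87 (SE 0.42, edgeR adjusted p 0.186) did not pass. On day 4 the arms overlapped, with 129.5, 179.9, 112 and 205 CPM in CTRL against 139, 232 and 347 CPM in EXP, and the log2 fold change of 0.61 (SE 0.39, adjusted p 0.270) did not pass either. Within EXP, Hmox1 fell by 1.70 on the log2 scale from day 1 to day 4 (SE 0.40, adjusted p 0.00675). Ordered by mean CPM the groups ran from day 1 EXP (778) through day 2 EXP (316), day 4 EXP (239.6), day 2 CTRL (172) and day 4 CTRL (157) to day 1 CTRL (117), and each neighbouring pair in this order overlapped.

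Macrophages are rich in heme oxygenase, so their markers are given beside this result. The 9 macrophage and leukocyte markers summed to 63.2 to 111 CPM in day 1 CTRL and to 64.0 to 89.9 CPM in day 1 EXP. These ranges overlap, and the EXP median of 81.8 CPM lay close to the CTRL median of 82.6. Of the 6 markers with enough counts to test, 2 were called higher and 1 lower. Cd14 rose by 0.85 (SE 0.30, edgeR adjusted p 0.0362) and Cd68 by 1.36 (SE 0.43, adjusted p 0.0207), while Csf1r fell by 1.12 (SE 0.34, adjusted p 0.0174). Adgre1 was at 0 in all day 1 EXP libraries, and Ptprc reached at most 0.121 CPM there. The part of these markers in the Hmox1 result was not tested. The 6 erythroid markers summed to 4.11 to 8.26 CPM in CTRL and 2.58 to 5.07 CPM in EXP on day 1.

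Glutamate-cysteine ligase makes the first and rate-limiting product of glutathione synthesis, and both of its subunits rose on day 1. Gclc (ENSMUSG00000032350), the catalytic subunit, was at 5.89, 5.80, 5.47 and 6.82 CPM in day 1 CTRL. In day 1 EXP it was at 37.9, 24.1, 44.1, 27.5 and 19.6 CPM, each of them above all controls. The log2 fold change was 2.35 (SE 0.26, edgeR adjusted p 6.20e-06) and lay between 2.18 and 2.48 in the 9 fits without 1 library, all called. It was 2.42 on the high side.

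Gclc did not return to its day 1 CTRL level on later days in either arm. It was at 12.5, 16.1 and 10.5 CPM in CTRL and 13.4, 19.7 and 11.5 CPM in EXP on day 2, and the arms overlapped (0.19, SE 0.30, edgeR adjusted p 0.722). On day 4 CTRL held 11.9, 10.8, 9.13 and 17.6 CPM and EXP 8.85, 11.2 and 14.8 CPM, again overlapping (adjusted p 0.846). Every CTRL library of days 2 and 4 was above every day 1 CTRL library, although the change over days within CTRL did not pass (adjusted p 0.0867). The day 1 difference was therefore measured against the lowest control group of the series for this gene.

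Gclm (ENSMUSG00000028124), the modifier subunit that raises the activity of the ligase, was the least abundant of the 10 genes. Day 1 CTRL held 3.29, 3.01, 3.25 and 4.37 CPM and day 1 EXP 26.5, 9.65, 13.9, 10.1 and 7.44 CPM. No libraries overlapped, and the log2 fold change was 1.96 (SE 0.39, edgeR adjusted p 8.80e-04), called in all 9 fits without 1 library and 2.47 (adjusted p 0.00413) on the high side alone. On day 2 it was at 3.04, 4.75 and 2.96 CPM in CTRL and 4.52, 4.80 and 3.56 CPM in EXP, without a called difference (0.26, SE 0.46, adjusted p 0.758).

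On day 4 the direction of Gclm was the opposite. CTRL held 3.92, 4.80, 5.11 and 14.9 CPM and EXP 2.23, 2.26 and 3.25 CPM, so that all EXP libraries lay below all CTRL libraries (log2 fold change -1.48, SE 0.44, edgeR adjusted p 0.0214). Without CTRL replicate 4, which held the 14.9 CPM, the value was -0.84 (adjusted p 0.119), and among the low-side libraries alone (2 CTRL, 3 EXP) it was -0.76 (adjusted p 0.257). The call was also lost without EXP replicate 1 (adjusted p 0.0874) or without EXP replicate 2 (adjusted p 0.0767). Gclm exons overlap those of Gm17494 on the other strand and of Gm6061 in GENCODE M21. Of the stretches of 75 bases in its transcripts, 3.50% are also found in transcripts of 13 other genes, Ppia among them. Its count is therefore uncertain. How reads from such stretches were counted is not known, so this share does not give the size of the uncertainty.

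Txnrd1 (ENSMUSG00000020250), the cytosolic reductase that recharges thioredoxin with electrons from NADPH, stood at 242, 317, 243 and 146 CPM in day 1 CTRL. In day 1 EXP it stood at 562, 434, 397, 383 and 389.7 CPM, each above all controls. The log2 fold change of 0.87 (SE 0.20, edgeR adjusted p 0.00328) remained called in all 9 fits without 1 library and on the high side alone (0.88, adjusted p 0.0185).

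On the later days Txnrd1 was on average lower in EXP. Day 2 CTRL held 442, 316 and 350.3 CPM against 321, 309.8 and 283 CPM in EXP, and day 4 CTRL held 377, 344, 251 and 379 CPM against 205, 188 and 308 CPM in EXP. The arms overlapped on both days, and neither the -0.28 of day 2 (SE 0.25, edgeR adjusted p 0.492) nor the -0.53 of day 4 (SE 0.23, adjusted p 0.103) passed. The sign on day 2 turned when libraries were scaled by their totals without TMM (0.20).

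Prdx1 (ENSMUSG00000028691), an abundant peroxiredoxin that reduces hydrogen peroxide and is recycled by thioredoxin, showed a smaller day 1 rise with little spread. It was at 241, 292, 349 and 393 CPM in CTRL and at 411, 573, 534, 536 and 433 CPM in EXP. All EXP libraries were above all CTRL libraries, and the effect was 0.64 (SE 0.16, edgeR adjusted p 0.00498), called in all 9 fits without 1 library. On day 2 (294, 326 and 324 CPM in CTRL, 382, 394 and 345 in EXP) and on day 4 (368, 367, 266 and 262 in CTRL, 395, 479 and 393 in EXP) the arms again did not overlap. These differences were 0.25 (SE 0.19, adjusted p 0.426) and 0.42 (SE 0.18, adjusted p 0.0935) and did not pass. The EXP effect on Prdx1 did not pass the test of a difference between days (edgeR adjusted p 0.526), so a loss of the rise after day 1 was not shown. Of the 75-base stretches of Prdx1 transcripts, 4.03% are shared with Gm21399 or Gm7204.

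The promoters of Gclm, Txnrd1 and Prdx1, which rose on day 1, and of Srxn1 are shown because they hold the letters searched for. RefSeq windows (GRCm38.p6) of 250 bases before and 50 bases from the annotated start were matched by symbol for 6 of the 10 genes, with 8 windows in all, and not for Hmox1, Gclc, Gsr and Sod3. They were searched on both strands for TGACNNNGC, the core of the antioxidant response element, and for TGACTCA, the AP-1 site, which overlaps the former where GC follows. TGACNNNGC was found in a window of 4 of these genes, Gclm, Txnrd1, Srxn1 and Prdx1, in 14.0% of all genes with such windows and in 12.4% of all 32851 windows. TGACTCA was found in 2, Srxn1 and Prdx1, in 5.95% of all genes and in 5.20% of all windows. The 250 bases before the start are given below, all on the plus strand and 5′ to 3′, with either motif in capitals.
Gclm, chr3:122245307-122245556: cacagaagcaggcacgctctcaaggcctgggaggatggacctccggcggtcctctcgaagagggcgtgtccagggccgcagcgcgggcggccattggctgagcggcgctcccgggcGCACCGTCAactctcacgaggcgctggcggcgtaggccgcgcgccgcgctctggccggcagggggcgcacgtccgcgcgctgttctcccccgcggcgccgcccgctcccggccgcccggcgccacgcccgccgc
Txnrd1 (the second of its 3 windows), chr10:82858956-82859205: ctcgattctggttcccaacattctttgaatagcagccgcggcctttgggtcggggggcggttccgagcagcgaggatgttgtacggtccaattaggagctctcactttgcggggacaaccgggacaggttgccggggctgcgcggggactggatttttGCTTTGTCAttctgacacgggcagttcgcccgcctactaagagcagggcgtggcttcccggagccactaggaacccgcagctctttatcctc
Srxn1, chr2:152105274-152105523: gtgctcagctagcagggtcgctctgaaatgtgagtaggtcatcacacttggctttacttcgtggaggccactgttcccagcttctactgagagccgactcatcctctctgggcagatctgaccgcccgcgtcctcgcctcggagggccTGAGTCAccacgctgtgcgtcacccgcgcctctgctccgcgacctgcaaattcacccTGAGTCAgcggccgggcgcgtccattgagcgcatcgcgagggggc
Prdx1, chr4:116685349-116685598: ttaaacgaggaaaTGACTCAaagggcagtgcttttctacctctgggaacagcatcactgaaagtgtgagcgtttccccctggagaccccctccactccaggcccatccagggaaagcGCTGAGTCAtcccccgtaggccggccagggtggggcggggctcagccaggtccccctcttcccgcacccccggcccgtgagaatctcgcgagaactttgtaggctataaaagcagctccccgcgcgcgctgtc

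In these sequences the match of Gclm is GCACCGTCA, which reads TGACNNNGC on the other strand, and that of Txnrd1 is GCTTTGTCA. The match of Prdx1, GCTGAGTCA, holds an AP-1 site within it, and Prdx1 has another TGACTCA nearer to the far end of the window. Srxn1 carries its 2 AP-1 matches before the start, while its TGACNNNGC match lies in the part of the window past the start. The windows of Nqo1 and Gpx3 held neither motif in these letters. A match describes letters only, and no binding was measured in these libraries.

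Srxn1 (ENSMUSG00000032802), the sulfiredoxin that restores over-oxidised peroxiredoxins, was higher in EXP by a similar size on each day. Day 1 CTRL held 171, 179, 186 and 83.7 CPM and day 1 EXP 338, 356, 189.9, 194 and 174 CPM. The arms overlapped only through EXP replicate 5, and the difference of 0.69 (SE 0.27, edgeR adjusted p 0.0626) did not pass over all libraries. Among the high-side libraries, where EXP held 338 and 356 CPM, it was 0.94 (adjusted p 0.0347). On day 2 the values were 184.5, 108 and 131 CPM in CTRL and 249, 201 and 279 CPM in EXP, which did not overlap (0.78, SE 0.33, adjusted p 0.123).

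On day 4 Srxn1 was called. CTRL held 153, 153, 115 and 171 CPM and EXP 227, 435 and 224 CPM, with no overlap, and the effect was 1.00 (SE 0.30, edgeR adjusted p 0.0242). Without EXP replicate 2, the library with 435 CPM, it was 0.59 (adjusted p 0.203), and without CTRL replicate 3 it was 0.89 (adjusted p 0.0700). Among the low-side libraries it was 0.95 (adjusted p 0.130). Its EXP effect did not pass the test of a difference between days (adjusted p 0.863), which does not show that the days were alike.

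Gsr (ENSMUSG00000031584), the reductase that returns oxidised glutathione to its reduced form, was at 9.64, 8.17, 6.94 and 7.58 CPM in day 1 CTRL and at 17.5, 14.3, 23.4, 13.8 and 10.2 CPM in day 1 EXP. The arms did not overlap on day 1, yet the log2 fold change of 0.97 (SE 0.41, edgeR adjusted p 0.0843) did not pass in the fit over all 22 libraries. Fitted without days 2 and 4 it was 0.98 (adjusted p 0.0106). On day 4 CTRL replicate 4 held 15.4 CPM and EXP replicate 1 held 14.1 CPM, while the other libraries held 3.24 to 6.35 CPM, and the groups overlapped.

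Nqo1 (ENSMUSG00000003849), a quinone reductase and a textbook NRF2 target, gave no call. Day 1 CTRL held 4.37, 6.18, 5.11 and 6.20 CPM and day 1 EXP 7.54, 8.64, 3.81, 12.03 and 10.6 CPM. The log2 fold change of 0.64 (SE 0.41, edgeR adjusted p 0.259) had EXP replicate 3 below all controls. On day 2 Nqo1 ranged from 5.07 to 18.6 CPM in CTRL and from 10.9 to 21.2 CPM in EXP, and on day 4 from 7.41 to 10.6 CPM and from 4.05 to 20.1 CPM. Neither day passed (adjusted p 0.545 and 0.804).

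Gpx3 (ENSMUSG00000018339), the glutathione peroxidase secreted into plasma and matrix, varied most between libraries. Day 1 CTRL held 1339, 671, 649 and 768 CPM, and day 1 EXP held 729.7, 2852, 509, 95.9 and 86.5 CPM. The EXP libraries of that day lay on both sides of the controls (log2 fold change -0.00, SE 0.75, edgeR adjusted p 0.998), and without EXP replicate 2 the value was -1.27. Day 2 CTRL held 147, 103 and 54.1 CPM against 746, 400.1 and 1768 CPM in EXP, with no overlap, and the effect of 3.26 (SE 0.99, adjusted p 0.0349) was called. With each day 2 library left out in turn the call was lost in 5 of 6 fits, down to 2.50 (adjusted p 0.133) without EXP replicate 3. The day 2 difference was measured against the lowest group of the series for this gene, day 2 CTRL, with a mean of 101 CPM. From day 1 to day 2 Gpx3 changed by -3.08 within CTRL (SE 0.96, adjusted p 0.160) and by 0.18 within EXP (SE 0.81, adjusted p 0.939), neither of them called.

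On day 4 the arms of Gpx3 did not overlap either, with 932, 334, 391 and 622 CPM in CTRL and 1780.2, 5380.1 and 2264 CPM in EXP. The log2 fold change was 2.46 (SE 0.86, edgeR adjusted p 0.0471). It was lost in 5 of the 7 fits without 1 library, down to 1.82 (adjusted p 0.202) without EXP replicate 2, and on the low side alone it was 2.31 (adjusted p 0.227). Markers of other cell types stood high in part of these libraries, and their part in the result was not tested. The 6 adipocyte markers summed to 2.39 to 6.82 CPM in day 4 CTRL and to 4.08, 119 and 377 CPM in EXP replicates 1, 2 and 3, with Adipoq at most 52.9 CPM. The 6 erythroid markers summed to 2.81 to 14.3 CPM in day 4 CTRL and to 28.7, 123 and 13.9 CPM in EXP replicates 1, 2 and 3, and the 4 with enough counts to test were all called higher. The 5 endothelial markers summed to 0.168 to 2.79 CPM in CTRL and to 2.28, 8.85 and 6.82 CPM in EXP, with 2 of 4 tested called higher. EXP replicate 2, with the highest erythroid and endothelial sums, also held the highest Gpx3. EXP replicate 1, with 4.08 CPM of adipocyte markers, held 1780.2 CPM of Gpx3, above all day 4 controls. On day 2 the adipocyte sum was 71.7, 8.38 and 8.11 CPM in EXP replicates 1, 2 and 3, and the third of these held the highest Gpx3 of that day.

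Sod3 (ENSMUSG00000072941), the extracellular superoxide dismutase, was the second of the secreted enzymes. It was at 479, 737, 428 and 539.8 CPM in day 1 CTRL and at 794, 725, 916, 977 and 812 CPM in day 1 EXP, where the arms overlapped only between CTRL replicate 2 and EXP replicate 2 (0.63, SE 0.28, edgeR adjusted p 0.0979). On day 2 the ranges were 465 to 722 CPM in CTRL and 501 to 1389 CPM in EXP, without a call (0.74, SE 0.34, adjusted p 0.156). On day 4 CTRL held 339.7, 674, 484 and 763 CPM and EXP 1238, 1291 and 634 CPM. The arms overlapped through EXP replicate 3, and the log2 fold change was 0.90 (SE 0.31, adjusted p 0.0433), which passed in 3 of the 7 fits without 1 library. It was 0.71 (adjusted p 0.180) without EXP replicate 2, 0.79 (adjusted p 0.149) without EXP replicate 1, 0.72 (adjusted p 0.113) without CTRL replicate 1 and 0.83 (adjusted p 0.101) without CTRL replicate 3. On the low side alone it was 1.06 (adjusted p 0.0962).

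**Figure D2:**
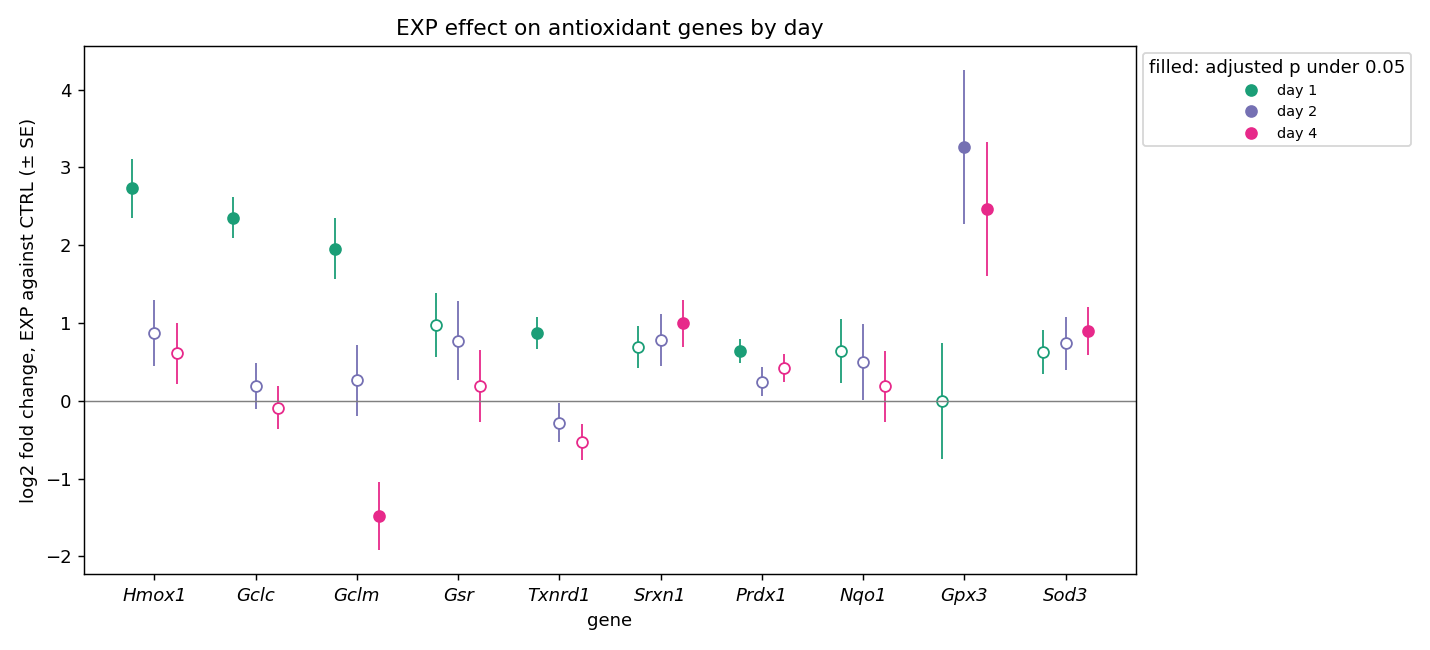
Log2 fold change of EXP against CTRL (vertical axis) with its standard error for the 10 genes on days 1, 2 and 4 (green, violet, pink); filled points have an adjusted p under 0.05. Hmox1, Gclc, Gclm and Txnrd1 fall from day 1 to day 4, from 1.96 to -1.48 for Gclm, while Gpx3 is near 0 on day 1 and at 3.26 and 2.46 later.

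On day 1, 6 of the 10 genes had EXP libraries that were all above the CTRL libraries, where 11.7% of all tested genes did. On day 2 it was 4 of 10 (Hmox1, Srxn1, Prdx1 and Gpx3) against 20.9% of all genes. On day 4 it was 3 of 10 (Srxn1, Prdx1 and Gpx3) against 13.8%, and 1 gene, Gclm, lay wholly lower, as 11.8% of all genes did. Prdx1 was thus separated in the same direction on each day. Within the high-side libraries of day 1, 6 of the 10 genes were called, where 13.8% of all genes were, among them the 5 called over all libraries, with Srxn1 as the other. Within the low-side libraries of day 4 the edgeR test called 0 of the 10 genes, where 7.86% of all genes (1380) were called.

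Whether the EXP effect depended on the day was tested directly. The joint test passed for 4 of the 10 genes, against 8.82% of all genes: Gclc (edgeR adjusted p 9.14e-04), Gclm (0.00379), Txnrd1 (0.0129) and Hmox1 (0.0252). From day 1 to day 4 the effect fell for 4 of the 10 genes, as it did for 5.18% of all genes. It fell by 3.44 on the log2 scale for Gclm (SE 0.59, adjusted p 0.00133), by 2.44 for Gclc (SE 0.38, adjusted p 7.44e-04), by 2.12 for Hmox1 (SE 0.54, adjusted p 0.0151) and by 1.40 for Txnrd1 (SE 0.31, adjusted p 0.00697). From day 1 to day 2 it fell for 1 of the 10 genes, beside 0.484% of all genes, namely by 2.16 for Gclc (SE 0.39, adjusted p 0.00584), while those of Hmox1 (-1.86, adjusted p 0.0721), Txnrd1 (-1.15, adjusted p 0.0518) and Gclm (-1.69, adjusted p 0.127) did not. With each of the 22 libraries left out in turn, Gclc, Gclm and Txnrd1 always passed the joint test. Hmox1 passed in 19 of them and was lost without day 1 CTRL replicate 1 (adjusted p 0.0566), 3 (0.0546) or 4 (0.0596), and also without a filter on low counts (0.0706).

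The same 4 genes changed over the days within EXP, where 14.3% of all genes did (edgeR adjusted p 0.00123 for Gclm, 0.00227 for Gclc, 0.00886 for Hmox1 and 0.0233 for Txnrd1). Within CTRL the edgeR test called 0 of the 10 genes, against 0.291% of all genes. There 4 of them had an unadjusted p under 0.05, and limma voom called 2 and DESeq2 called 1. From day 1 to day 4 Gclm, Gclc, Hmox1 and Txnrd1 changed within CTRL by 1.04, 1.04, 0.42 and 0.51 on the log2 scale, without a call in edgeR. Within EXP they changed by -2.39, -1.40, -1.70 and -0.89. The falls of the EXP effect thus hold changes of both arms. Each day was its own set of libraries, and a processing batch that followed the day cannot be told apart from the day within an arm. For Gpx3 the joint test did not pass (adjusted p 0.139), but without day 1 EXP replicate 2 it did (adjusted p 0.0122).

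Per kilobase of exon the 10 genes differed widely in level over the 22 libraries. The median was 364 CPM per kilobase for Gpx3, 194 for Sod3, 123 for Prdx1, 113 for Hmox1, 65.7 for Srxn1 and 45.0 for Txnrd1. It was much lower for Nqo1 (5.43), Gclc (3.24), Gsr (2.86) and Gclm (0.706). The genes with the largest day 1 effects thus included the abundant Hmox1 and the 2 scarce subunits of the glutathione ligase, and Gclm had at least 61 counts in every library.

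The regulators of NRF2 and the other lists were read from the same fit, in which 13.9% of all genes were called higher and 14.7% lower on day 1, 7.72% and 5.71% on day 2 and 12.8% and 9.66% on day 4. Nfe2l2 RNA, at 188 ± 42.5 (CTRL) and 236 ± 27.4 (EXP) CPM on day 1 (SD, n = 4 and 5), was not called on any day (0.33, 0.11 and -0.32; edgeR adjusted p 0.136, 0.764 and 0.225). Of the 11 regulators, 3 were called higher and 2 lower on day 1, 1 higher and 2 lower on day 2, and 2 lower on day 4. Keap1 was called lower on day 1 (-0.38, SE 0.14, adjusted p 0.0437), a call that was lost in 8 of the 9 fits without 1 library. Bach1 was not called (0.16, -0.40 and -0.32; adjusted p 0.548, 0.243 and 0.276). Bach2, a related repressor, fell by 2.46 on day 1 (SE 0.55, adjusted p 0.00235) and by 3.40 on day 2 (SE 0.71, adjusted p 0.00392) on the log2 scale, from levels of 1.40 and 2.43 CPM in CTRL. The small MAF genes Maff and Mafk, whose proteins pair with NRF2 or BACH1, fell on day 4 by 1.77 (SE 0.36, adjusted p 0.00273) and by 1.03 (SE 0.26, adjusted p 0.00883). Mafk was also called lower on day 2 (-0.83, adjusted p 0.0454), a call lost in 5 of the 6 fits without 1 library.

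Other genes known as NRF2 targets moved in both directions. Of 17 such genes 16 were tested, and 5 were called higher and 6 lower on day 1, 3 higher and 5 lower on day 2, and 2 higher and 4 lower on day 4. Akr1b8, an aldo-keto reductase, went from 19.8 ± 1.05 to 104.7 ± 62.1 CPM on day 2 (SD, n = 3 each; 2.41, SE 0.33, edgeR adjusted p 1.58e-04) and rose by 2.05 on day 4 (SE 0.30, adjusted p 2.82e-04). Its day 1 rise of 0.79 was called too (adjusted p 0.0275), a call lost in 3 of the 9 fits without 1 library. Abcc1, an exporter of glutathione conjugates, rose by 1.20, 1.55 and 0.73 on days 1, 2 and 4 (adjusted p 3.26e-04, 7.44e-04 and 0.0296). Its day 4 call was lost in 4 of the 7 fits without 1 library. In contrast Gstm1, a glutathione transferase, fell by 1.06, 1.50 and 0.92 on days 1, 2 and 4 (adjusted p 0.00122, 0.00138 and 0.0156). The exporter Abcc4 fell by 1.34, 1.49 and 1.43 on these days (adjusted p 0.00284, 0.0133 and 0.00982). 3 of the day 1 rises are named after their values were seen, since they bear on glutathione and iron. Slc7a11, which imports the cystine for glutathione, went from 5.58 ± 2.10 to 16.6 ± 4.97 CPM (SD, n = 4 and 5), a rise of 1.58 (SE 0.39, adjusted p 0.00474). It was also called higher on day 2 (2.10, SE 0.47, adjusted p 0.00626), but not on day 4 (0.34, adjusted p 0.601). The ferritin genes Fth1 and Ftl1, which store iron such as heme releases, rose on day 1 by 1.35 (SE 0.20, adjusted p 6.79e-05) and 0.69 (SE 0.19, adjusted p 0.00959). They were not called on days 2 and 4. Ferritin genes have many processed copies in the genome, so their counts are uncertain.

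**Figure D3:**
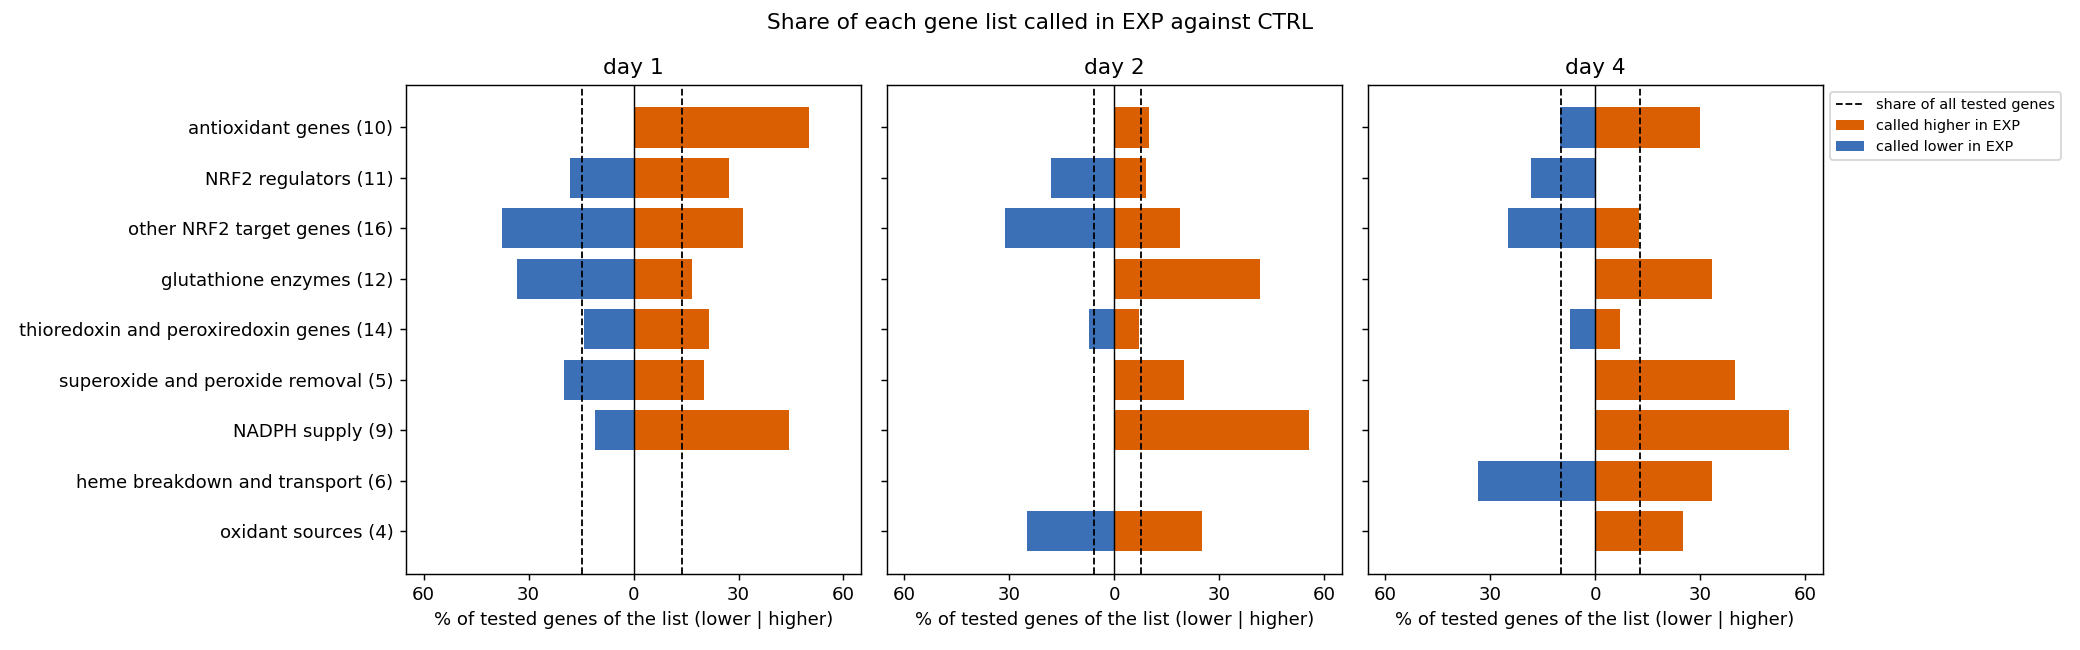
Percentage of the tested genes of each list (number in parentheses) called higher in EXP (orange, right of 0) or lower (blue, left of 0) on days 1, 2 and 4; dashed lines mark the shares of all tested genes. On day 1 the 10 antioxidant genes have 50% called higher, beside 13.9% of all genes, and the NADPH list is above the dashed line for higher calls on all days.

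Among the 12 other glutathione enzymes 2 were called higher and 4 lower on day 1, while all 5 called on day 2 and all 4 called on day 4 were higher. Glrx, a glutaredoxin that removes glutathione from proteins, went from 31.7 ± 11.4 to 124 ± 35.5 CPM on day 1 (SD, n = 4 and 5) (1.97, SE 0.28, edgeR adjusted p 4.27e-05) and rose by 1.94 on day 2 (SE 0.33, adjusted p 8.41e-04). Its rise of 1.01 on day 4 was called (adjusted p 0.0188), but lost in 3 of the 7 fits without 1 library. Gsto1, an omega-class transferase, rose by 1.24, 1.34 and 1.82 on days 1, 2 and 4 (adjusted p 0.00134, 0.00778 and 4.25e-04). Mgst3, a microsomal transferase, changed direction: it fell by 0.84 on day 1 (adjusted p 0.00650) and rose by 0.97 on day 2 and 0.85 on day 4 (adjusted p 0.0200 and 0.0185). Its day 2 call was lost in 4 of 6 and its day 4 call in 3 of 7 fits without 1 library.

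The thioredoxin and peroxiredoxin list held 14 genes, of which 3 were called higher and 2 lower on day 1 and 1 in each direction on days 2 and 4, near the shares over all genes. Sesn2, a stress-induced sestrin, rose by 1.14 on day 1 (SE 0.17, edgeR adjusted p 5.66e-05), as did Txnrd3 by 1.01 (SE 0.25, adjusted p 0.00425). Sesn1 fell by 0.83, 1.87 and 1.61 on days 1, 2 and 4 (adjusted p 0.0204, 0.00101 and 0.00175). The peroxiredoxin Prdx5 rose by 0.80 on day 2 and by 1.23 on day 4 (adjusted p 0.0266 and 0.00105). The day 1 call of Sesn1 was lost in 3 of 9 and the day 2 call of Prdx5 in 4 of 6 fits without 1 library. Of 5 genes for removal of superoxide and peroxide, Sod2, the mitochondrial superoxide dismutase, went from 217 ± 33.4 to 697 ± 66.9 CPM on day 1 (SD, n = 4 and 5) (1.68, SE 0.19, adjusted p 6.67e-06) and rose by 1.39 on day 2 (adjusted p 6.81e-04). On day 4 its rise of 0.61 was called (adjusted p 0.0377), but lost in 4 of the 7 fits without 1 library. Cat, the peroxisomal catalase, fell by 1.10 on day 1 (SE 0.16, adjusted p 6.94e-05), from 74.9 ± 8.36 to 35.03 ± 5.16 CPM.

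Gsr and Txnrd1 spend NADPH, and the 9 genes that supply it were called higher for 4, 5 and 5 of them on days 1, 2 and 4, with 1 lower on day 1. The pentose phosphate enzymes Tkt (0.65, 1.27 and 0.86; edgeR adjusted p 0.00128, 9.44e-05 and 9.12e-04) and Pgd (1.08, 0.94 and 0.83; adjusted p 6.67e-05, 0.00350 and 0.00341) rose on all days. G6pdx, which opens that pathway, rose by 0.48, 1.04 and 0.76 on days 1, 2 and 4 (adjusted p 0.0154, 8.08e-04 and 0.00301). The malic enzyme Me1 rose by 0.57, 1.05 and 0.96 (adjusted p 0.0337, 0.00750 and 0.00560). Their day 1 calls were lost in 1 and 5 of the 9 fits without 1 library.

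Of 6 other genes of heme breakdown and transport, 4 were called on day 4, 2 in each direction. Flvcr1, a heme exporter, fell by 1.15 on that day (SE 0.28, edgeR adjusted p 0.00799). Among 8 oxidant-producing genes only 4 had enough counts to test. Of these, 1 was called in each direction on day 2 and 1 higher on day 4. Cybb, the oxidase of phagocytes, was at most 0.284 CPM in any library. Nox4, an oxidase of fibroblasts and other stromal cells, rose from 9.11 ± 2.14 to 33.4 ± 7.76 CPM on day 2 (SD, n = 3 each; 1.88, SE 0.30, adjusted p 6.38e-04) and by 1.62 on day 4 (SE 0.27, adjusted p 6.22e-04), and was not called on day 1. Duox1, an oxidase typical of epithelia, fell by 1.21 on day 2 (SE 0.37, adjusted p 0.0321), a call that was lost in 4 of the 6 fits without 1 library. Of the 65 calls of the related genes chosen for naming, counted per gene and day, 41 were kept in every fit without 1 library of that day.

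**Figure D4:**
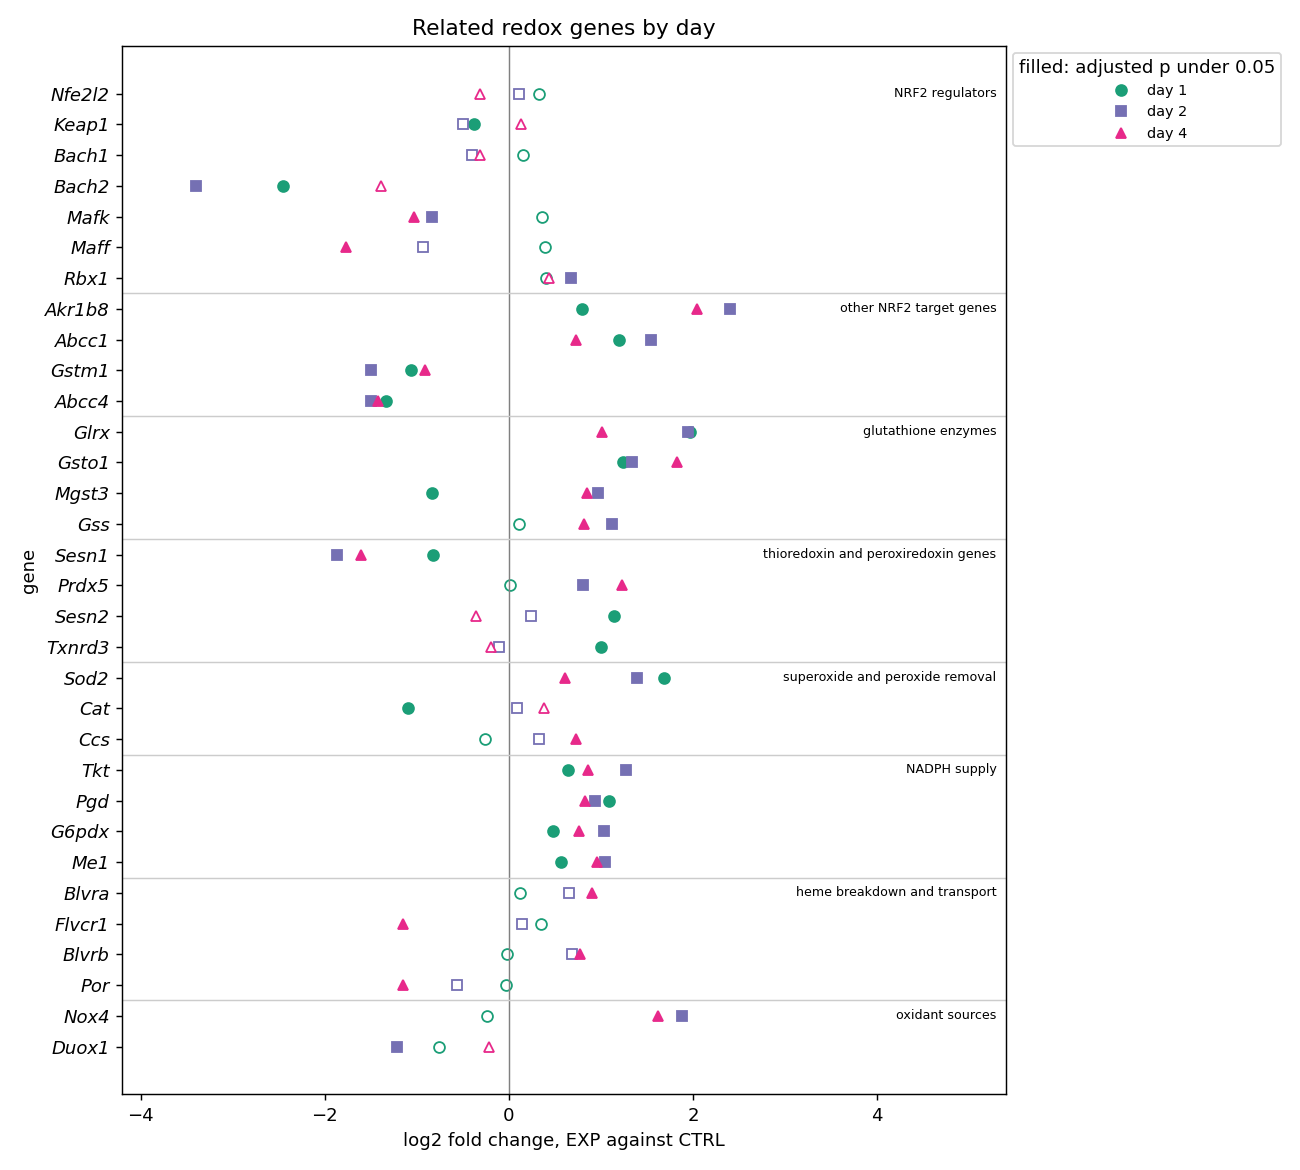
Log2 fold change of EXP against CTRL (horizontal axis) for the related genes, grouped by role, on day 1 (circles), day 2 (squares) and day 4 (triangles); filled symbols have an adjusted p under 0.05. Tkt, Pgd, G6pdx and Me1 lie right of 0 on all days, Nfe2l2 has open symbols only, and Bach2 reaches -3.40 on day 2.

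For each of the 10 genes the tested gene with the most alike pattern was sought, by the smallest root mean square difference of centred mean log2 CPM over the 6 groups. For Hmox1 it was Grwd1 (0.19, where Hmox1 itself spanned 2.58 between its highest and lowest group). For Gclm it was Klhl21 (0.19 of a span of 2.23), for Txnrd1 Sik3 (0.08 of 0.91), for Gsr Cluh (0.14 of 1.81) and for Gpx3 Col6a5 (0.23 of 4.90). Gclc was nearest to Gm44260 (0.22 of 2.28), Nqo1 to Gm37558 (0.14 of 1.55), Srxn1 to Gm21953 (0.06 of 1.03) and Sod3 to Gm10155 (0.04 of 0.91), which are predicted genes. Prdx1 was nearest to Gm7204 (0.03 of 0.66), a gene with which it shares sequence. These are descriptions over 6 group means.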

How the data were processed

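The authors deposited raw read counts per gene for 22 libraries of sorted mouse skin fibroblasts, as 1 table of 55414 Ensembl identifiers. Per the submitters' processing notes, Trimmomatic and the genome build mm39 were used. The aligner, counter, annotation and strand setting are not given in the sources used here, so genes overlapping on opposite strands cannot be separated. GENCODE M21 named 52081 identifiers and gave exon lengths. It uses another build, GRCm38, so coordinates are printed only for the RefSeq promoter windows, in GRCm38.p6.

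Counts were analysed in R 4.3.3 with edgeR 4.0.16: filterByExpr (minimum count 10, leaving 17554 genes), TMM, and a robust quasi-likelihood F-test with a mean per group over all 22 libraries (16 residual degrees of freedom), adjusted by Benjamini-Hochberg within each contrast. Log2 CPM used a prior count of 2. Alternatives used limma 3.58.1 and DESeq2 1.42.0, among others. Tested on simulated day 1 counts of 17055 genes, it made 90 calls, 3 of them false, and found 22.7% of the 2-fold and 66.3% of the 4-fold changes. The simulation changed a small part of the genes, in day 1 EXP only and evenly up and down. In the data 5017 genes were called on day 1, so these shares need not carry over. No 2 replicates agreed within counting noise (chi-square over its degrees of freedom at least 26.7), and none were merged.

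The 10 genes, the related lists and the markers were chosen with earlier results of these data known. From each related list the text could name Nfe2l2, Keap1 and Bach1, and up to 4 genes called on the most days, ties ordered by p. Slc7a11, Fth1 and Ftl1 were added outside this rule, after their values were seen.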

Additional observations from a re-analysis of the deposited data

Results flagged for a closer look

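The EXP effect differed between days by a direct test for Hmox1 (edgeR adjusted p 0.0252), Gclc (9.14e-04), Gclm (0.00379) and Txnrd1 (0.0129). Of 30 sets of values with at least 4 libraries, 4 had a library at one end that was distant from all others, while chance marks about 1 in 20 sets, or 1.5 of 30. Day 4 CTRL replicate 4 held 14.9 CPM of Gclm, beside 3.92 to 5.11 CPM in the other libraries of its group. Day 1 EXP replicate 1 held 562 CPM of Txnrd1 (others 383 to 434 CPM). Day 1 CTRL replicate 4 was lowest for Srxn1, at 83.7 CPM (others 171 to 186 CPM); the other 3 of its group belong to the high side. Day 1 EXP replicate 2 held 2852 CPM of Gpx3 (others 86.5 to 729.7 CPM).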

How the results depend on the processing

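Of 2152 values of named genes under alternatives, 1898 kept their side of the threshold and, where they had one, their direction. A call was lost in 203 and gained in 30, and 21 changed sign. Related genes other than Nfe2l2, Keap1 and Bach1 were entered only on days when they were called, so they could lose a call but not gain one. The balance of lost and gained calls is partly set by this choice. The cause of the changes was not tested. Of the 10 genes, the number called moved from 5 to 3 on day 1 with an absolute log2 fold change of at least 1 also required. On day 2 it moved from 1 to 5 without TMM, 0 without a low-count filter, 3 with each day fitted on its own and 2 with limma voom. On day 4 it moved from 4 to 2 with the fold change limit, without the filter or with the library split as a covariate, to 1 with each day on its own or limma voom, and to 0 on the low side alone. Within CTRL it was 2 with limma voom and 1 with DESeq2. Leaving out 1 library gave 5 to 6 genes on day 1, 0 to 2 on day 2, 0 to 5 on day 4, 3 to 5 for the difference between days and 3 to 5 within EXP.

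Over all genes, the fold change limit left 2504, 1568 and 2405 on days 1, 2 and 4. Without TMM 4631 were called on day 2 and 163 within CTRL. The high side alone gave 2428 on day 1, the low side alone 1380 on day 4, and day 4 on its own 1072. Limma voom called 4620 on day 2, 2352 for the difference between days and 631 within CTRL, and DESeq2 2609 and 525 for the last 2. Within CTRL a minimum mean of 1 CPM gave 83 and the split covariate 29. Without 1 library the counts ran from 4024 to 4815 on day 1, 921 to 2249 on day 2, 1755 to 4990 on day 4, 895 to 2617 for the difference between days, 1374 to 3330 within EXP and 5 to 92 within CTRL.

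Same-numbered libraries of a day correlated at -0.07 to 0.16 in their deviations from the group means, so the replicate numbers were not taken to pair them. With the replicate number as a block, 0 of the 10 genes were called on day 2 and 2 on day 4, and over all genes 401 for the difference between days, 1432 within EXP and 19 within CTRL. Txnrd1 then did not pass the test of a difference between days (adjusted p 0.0635). The block gave Nqo1 a log2 fold change of -0.069 and Gclc one of 0.11 on day 4.

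Signs turned only for values that were not called. Nqo1 on day 4 was -0.25 with limma voom and ran from -0.81 (without EXP replicate 3) to 0.56 when 1 library was left out. Gclc on day 4 was 0.20 without TMM and 0.035 on the low side, and ran from -0.30 to 0.13 without 1 library; on day 2 it ran from -0.063 (without EXP replicate 2) to 0.37. Txnrd1 on day 2 was 0.20 without TMM. Gsr on day 4 ran from -0.39 (without EXP replicate 1) to 0.83. Gpx3 on day 1 was 0.093 without TMM and 1.00 on the high side, and ran from -1.27 (without EXP replicate 2) to 0.30. Bach1 was -0.20 on day 1 on the high side and 0.054 on day 2 without TMM. The comparisons within a side of the split were added after the data were seen. Nqo1, Gclc, Gsr and Gclm have the fewest counts, at least 105, 137, 59 and 61 in a library.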
